A study of Mus musculus with 6 samples.

Results

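Nonsense-mediated decay (NMD) is the quality control pathway that destroys mRNAs on which translation stops too early. Pol II occupancy at 9 genes of this pathway, Upf1, Upf2, Upf3a, Upf3b, Smg1, Smg5, Smg6, Smg8 and Smg9, was measured in mouse neural precursor cells (NPCs) with and without Armc5. The genes were chosen by symbol. All 9 were among the 12107 genes with counts, and each had 3 regions, which makes 27 of 36321 regions. Promoter windows began 400 bases before the transcription start site (TSS) and ended 100 bases after it. Gene bodies followed up to 100 bases before the transcription end site (TES), and TES regions covered the next 2100 bases.

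RNA polymerase II (Pol II) was mapped by ChIP-seq against the POLR2A (RPB1) N-terminus in 3 replicate pairs of WT and Armc5 KO cells. POLR2A is the catalytic core subunit of the enzyme. Armc5(-/-) cells lack ARMC5, which recognises POLR2A as a substrate for a CUL3 ubiquitin ligase. Both groups were neurospheres of the second passage, grown with epidermal growth factor from ganglionic eminences of e13.5 fetuses. The strain is labelled 129 sv X CD1, whereas the methods of the study name a CD1 x C57BL/6 F1 background, and the sex of the fetuses is not given in the labels. Libraries held 14528870 to 25199455 counted reads. The third pair stood apart, with 6.04% (WT) and 6.88% (KO) of reads in promoters against 10.9% to 12.2% in the other 4 libraries. Gene body signal of Y-linked genes was 0.731 CPM in WT replicate 3 and 106 to 186 CPM in the other 5 libraries. Armc5 itself was not analysed here, and its counts gave no check of the genotype. Of 9 neural stem cell markers 8 were measured, with summed gene body signal of 288 to 593 CPM per library, against 56.2 to 152 CPM in their promoters. Of 6 neuron markers 5 were measured, at 969 to 1317 CPM in gene bodies and 7.50 to 28.4 CPM in promoters, and gene body sums are not per length. Gene body sums were 184 to 372 CPM for 4 of 6 oligodendrocyte lineage markers, 173 to 340 for 2 of 5 astrocyte markers, 20.8 to 49.8 for 3 of 5 ganglionic eminence markers and 16.2 to 45.4 for 1 of 6 endothelial and mural markers, and 0 of 7 microglia and blood cell markers were measured. Scaling was within these libraries, so a gain or loss of Pol II common to the whole genome would go unseen.

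In the pathway, the RNA helicase UPF1 is recruited where a ribosome terminates, and UPF2 links it to UPF3B or its paralogue UPF3A, which bind the exon junction complexes that splicing leaves behind. The kinase SMG1, held in check by its partners SMG8 and SMG9, phosphorylates UPF1. Phosphorylated UPF1 is bound by SMG5, which brings in decay enzymes and a phosphatase, and by SMG6, an endonuclease that cuts the mRNA near the stop codon. Several mRNAs of this machinery are themselves NMD targets, and loss of UPF3B, which is encoded on the X chromosome, is known from neurodevelopmental disorders.

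The result turned on the promoter of Upf3a, where Pol II signal rose in KO cells. It was the only 1 of the 27 regions that passed the test. Of all promoters 0.173% passed, of all gene bodies 0.206% and of all TES regions 0.0248% (adjusted p under 0.1 in limma-voom blocked on the replicate pair, Benjamini-Hochberg over all 36321 regions). Over the 9 genes, promoters had a median log2 fold change of 0.02, beside 0.03 over all genes. The medians were 0.01 and -0.01 for gene bodies and -0.05 and -0.08 for TES regions. The other 26 regions had log2 fold changes between -0.21 and 0.41.

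The core promoters of the UPF3 paralogues are shown because 1 of them carried the difference, and that of Smg9 because it came next by p. They span 250 bases upstream to 50 downstream of the RefSeq start (GRCm38.p6), 5′ to 3′ on the strand of the gene, at chr8:13785365-13785664 (plus) for Upf3a, chrX:37110273-37110572 (minus) for Upf3b and chr7:24399378-24399677 (plus) for Smg9. Capitals mark matches, on either strand, to the CCAAT box (CCAAT), the GC box (GGGCGG), the letters TGACG of a cyclic AMP response element, the YY1 core (AAGATGGC) and the NRF1 letters TGCGCA.
Upf3a: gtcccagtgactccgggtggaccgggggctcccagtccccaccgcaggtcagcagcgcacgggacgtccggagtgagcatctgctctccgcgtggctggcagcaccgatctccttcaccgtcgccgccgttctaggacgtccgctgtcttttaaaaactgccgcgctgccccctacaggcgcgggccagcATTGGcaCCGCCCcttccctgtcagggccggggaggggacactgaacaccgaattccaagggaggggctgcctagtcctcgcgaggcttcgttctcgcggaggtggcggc
Upf3b: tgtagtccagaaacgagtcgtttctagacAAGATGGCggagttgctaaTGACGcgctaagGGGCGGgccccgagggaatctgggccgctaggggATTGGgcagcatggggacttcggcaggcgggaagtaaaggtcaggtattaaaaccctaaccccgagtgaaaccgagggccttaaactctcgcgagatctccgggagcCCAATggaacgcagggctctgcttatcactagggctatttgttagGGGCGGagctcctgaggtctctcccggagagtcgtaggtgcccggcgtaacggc
Smg9: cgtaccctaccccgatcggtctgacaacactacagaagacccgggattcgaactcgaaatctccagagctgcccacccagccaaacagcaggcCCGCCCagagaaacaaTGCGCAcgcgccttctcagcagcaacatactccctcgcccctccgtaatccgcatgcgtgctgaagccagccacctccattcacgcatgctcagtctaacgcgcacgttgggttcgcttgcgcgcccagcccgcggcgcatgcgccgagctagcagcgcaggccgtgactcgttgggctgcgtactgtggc
In Upf3a the CCAAT box and the GC box, both on the minus strand, lie close together, from 60 to 56 and from 53 to 48 bases upstream of the start. Upf3b holds 2 CCAAT boxes and 2 GC boxes, and Smg9 holds 1 GC box and no CCAAT box. A GC box was found in 7 of the 9 promoters (Smg5 and Smg8 held none) against 65.0% of 11891 promoters of measured genes and 35.7% of all 32851 RefSeq promoters. A CCAAT box was found in 4 of 9 (Upf3a, Upf3b, Smg1 and Smg8) against 38.2% and 37.4%. TGACG (31.4% of measured genes) and the YY1 core (4.47%) were found in Upf3b alone, TGCGCA in Upf1, Smg6 and Smg9 (14.3%), and the ETS core CCGGAA in Upf1 and Smg8 (27.3%). No promoter of the 9 held the letters TATAAA (6.60% of measured genes), the E box CACGTG (9.97%) or the full response element TGACGTCA (3.22%). The GC content ranged from 53.3% in Smg8 to 72.3% in Upf1, and was 68.0% in Upf3a and 58.7% in Upf3b, beside a median of 61.3% for measured genes. TGACG lies within TGACGTCA, and the other motifs can overlap where they abut. These matches describe letters and not bound factors.

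Upf3a lies at chr8:13785615-13799193 on the plus strand (GRCm38, GENCODE vM21), and no other annotated gene overlaps its 3 windows. Its promoter window held 258, 310 and 114 WT reads and 544, 390 and 201 KO reads, in the order of the pairs. After TMM scaling this was 12.6, 12.3 and 9.26 CPM (counts scaled to library size) in WT and 19.6, 18.7 and 14.2 CPM in KO. All KO values lay above all WT values, as in 2.24% of all promoters. Mean signal was 11.4 ± 1.84 CPM for WT against 17.5 ± 2.87 CPM for KO (SD, n = 3). The log2 fold change was 0.62 ± 0.11 (SE), or 1.54-fold (95% interval 1.30 to 1.82), with a limma adjusted p = 0.0926. The 3 pairs differed by 0.64, 0.61 and 0.62 on the log2 scale, so the KO library was higher in 3 of 3 pairs by nearly the same factor, the third pair included. In 18.1% of all promoters KO was higher in 3 of 3 pairs.

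**Figure D1:**
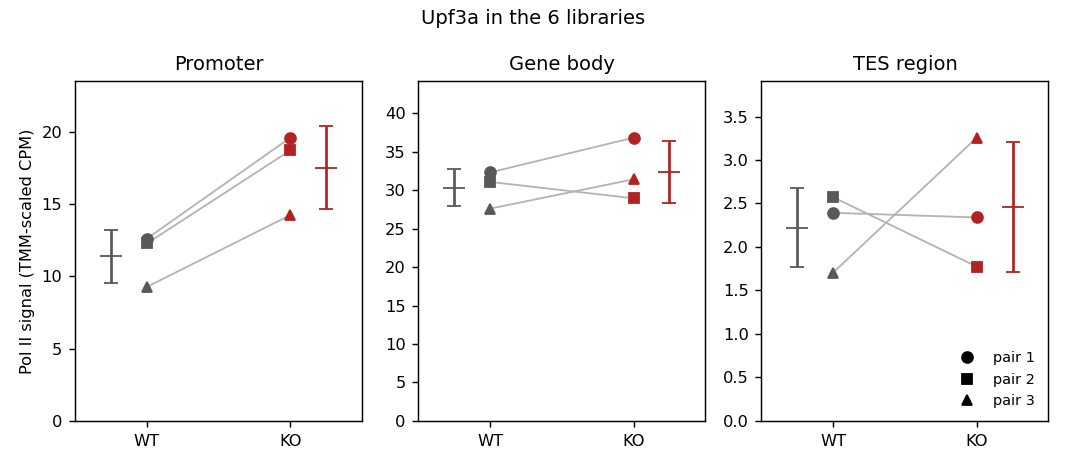
Pol II signal (TMM-scaled CPM, vertical axis) in the promoter, gene body and TES region of Upf3a in each WT (grey) and KO (red) library. Lines join replicate pairs, and bars beside the points are the mean and SD of 3 libraries. Only in the promoter panel do the groups separate, at 9.26 to 12.6 CPM in WT and 14.2 to 19.6 in KO.

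The rise was at the edge of the threshold. Its log2 fold change lay between 0.60 and 0.64 under all 19 alternatives, but the adjusted p crossed 0.1 under 9 of them. It was 0.102 with the quasi-likelihood test of edgeR, 0.108 with DESeq2, 0.138 with library totals alone and 0.134 with TMM factors from gene bodies. It was 0.589 in limma on the log2 CPM of the authors and 1.0 in limma without the replicate block. Without WT replicate 2 the limma adjusted p was 0.345, without KO replicate 2 it was 0.251, and without both 0.464. Leaving out any other library or pair gave adjusted p-values of 0.0132 to 0.0399. The number of all promoters called moved likewise. It was 21 in the reported fit, 9, 25 and 2 in the fits without replicate 2, and 102 to 356 in the other left-out fits. Under the block, leaving out 1 library nearly repeats leaving out its pair. The log2 fold change was 0.611, 0.611 and 0.617 without WT replicate 1, KO replicate 1 or both. The 9 left-out fits are therefore not separate checks.

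**Figure D2:**
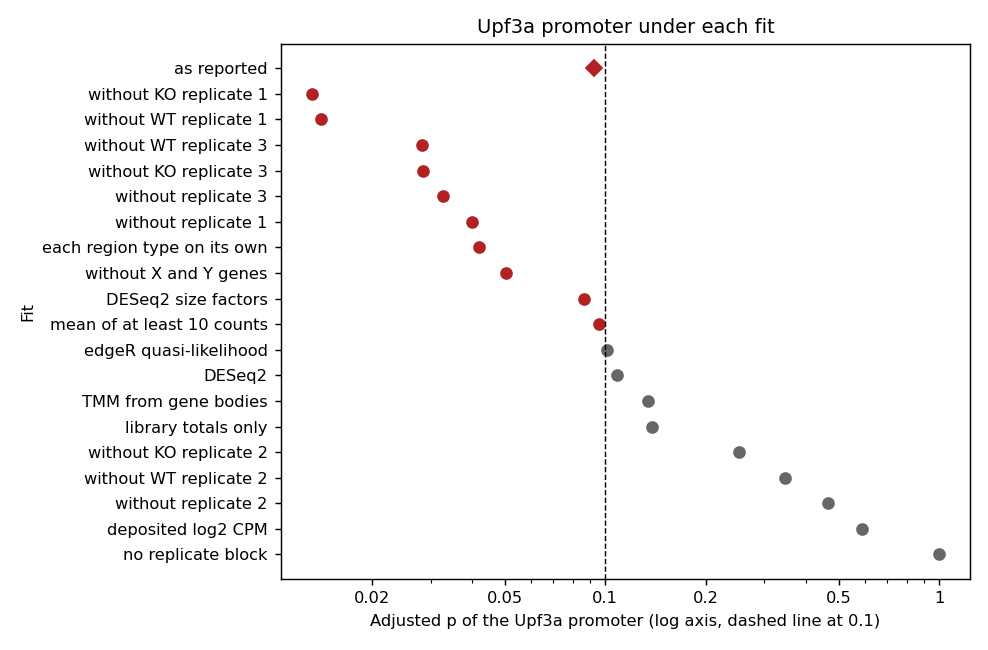
Adjusted p (horizontal log axis) of the Upf3a promoter in the reported fit (diamond) and under 19 alternatives (circles). Red points lie under the threshold of 0.1 (dashed line) and grey points above it, and the values run from 0.0132 to 1.0.

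The rise was not seen past the test in the rest of Upf3a. The gene body held 32.3, 31.1 and 27.6 CPM in WT and 36.9, 29.0 and 31.4 in KO, which overlap. Its log2 fold change was 0.08 ± 0.09 (95% interval -0.12 to 0.28, limma adjusted p = 0.850), with KO higher in 2 of 3 pairs. It was 0.012 without WT or KO replicate 1, and 0.19 and 0.18 without WT or KO replicate 2. The TES region was the sparsest of the 9 in WT, at 2.22 ± 0.457 CPM in WT and 2.46 ± 0.748 in KO, and the pairs disagreed in sign (log2 fold change 0.02 ± 0.26, interval -0.55 to 0.59, limma adjusted p = 0.994).

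The ratio of promoter density to gene body density, per base, relates Pol II near the start to elongating Pol II within each library. For Upf3a it was 10.4, 10.6 and 8.97 in WT and 14.2, 17.3 and 12.1 in KO. The KO ratios all lay above the WT ratios, but the share of all genes where this holds was not counted. On the log2 scale of the read counts the difference was 0.53 ± 0.17 (interval 0.15 to 0.91), but it did not pass the test across genes (limma adjusted p = 0.328). None of the 9 genes passed for this ratio, beside 0.0331% of 12096 genes. None passed for the ratio of TES region to gene body, beside 0.00828% of 12076 genes.

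Upf3b, the X-linked paralogue (chrX:37091678-37110322, minus strand, no overlapping gene), had the lowest promoter level of the 9 genes. Its promoter held 3.76, 3.52 and 3.25 CPM in WT and 4.86, 3.69 and 2.55 in KO. The groups overlapped, with pair 1 higher and pair 3 lower in KO (log2 fold change 0.11 ± 0.19, interval -0.31 to 0.53, limma adjusted p = 0.911). The interval of Upf3b holds part of that of Upf3a (0.37 to 0.87), and a difference between the paralogues was not tested. The gene body of Upf3b gave 13.9, 13.2 and 24.0 CPM in WT and 17.2, 14.6 and 18.7 in KO. WT replicate 3, the library nearly without Y signal, stood far above the other WT libraries. Its Upf3b gene body lay 0.63 (log2) above the mean of the other 5 libraries, where the median of 354 X-linked gene bodies lay 0.61 above and that of autosomal gene bodies 0.17. The log2 fold change of 0.06 ± 0.13 (limma adjusted p = 0.935) became 0.24 without that library (adjusted p = 0.744). In the TES region it was -0.07 ± 0.24 (adjusted p = 0.956).

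Upf1, the helicase at the centre of the pathway (chr8:70331525-70353278, minus strand), had among the highest levels. Its promoter held 20.7, 19.5 and 6.91 CPM in WT and 22.3, 15.9 and 6.30 in KO. Both libraries of the third pair were low and the groups overlapped (log2 fold change -0.08 ± 0.12, interval -0.34 to 0.18, limma adjusted p = 0.889). The gene body (50.0 ± 10.7 CPM in WT, 49.7 ± 5.71 in KO) and the TES region (16.6 ± 4.51 and 15.2 ± 3.33 CPM) had log2 fold changes of -0.03 ± 0.09 and -0.13 ± 0.11. The TES window of Upf1 takes in the 3′ end of Cers1 and the whole of Gdf1, both on the opposite strand. In 1570 of its 2100 bases it coincides with the gene body window of Gdf1, whose count was 77.7% to 87.9% of the Upf1 TES count, so that most of these reads cannot be assigned to Upf1. The TES window of Cers1 in turn shares 1967 bases with the gene body window of Upf1. Its count was 22.8% to 44.7% of the Upf1 gene body count, so the gene body level cannot be assigned to Upf1 alone. Upf2, the bridging factor (chr2:5951469-6056703, plus strand, no overlapping gene), had promoter log2 fold change -0.11 ± 0.16, gene body -0.08 ± 0.06 and TES region -0.05 ± 0.20, and none passed the test. Its promoter held 6.20, 8.07 and 4.14 CPM in WT and 5.90, 8.01 and 3.04 in KO, with KO lower in 3 of 3 pairs but by little in the first and second. In 13.3% of all promoters KO was lower in 3 of 3 pairs.

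**Figure D3:**
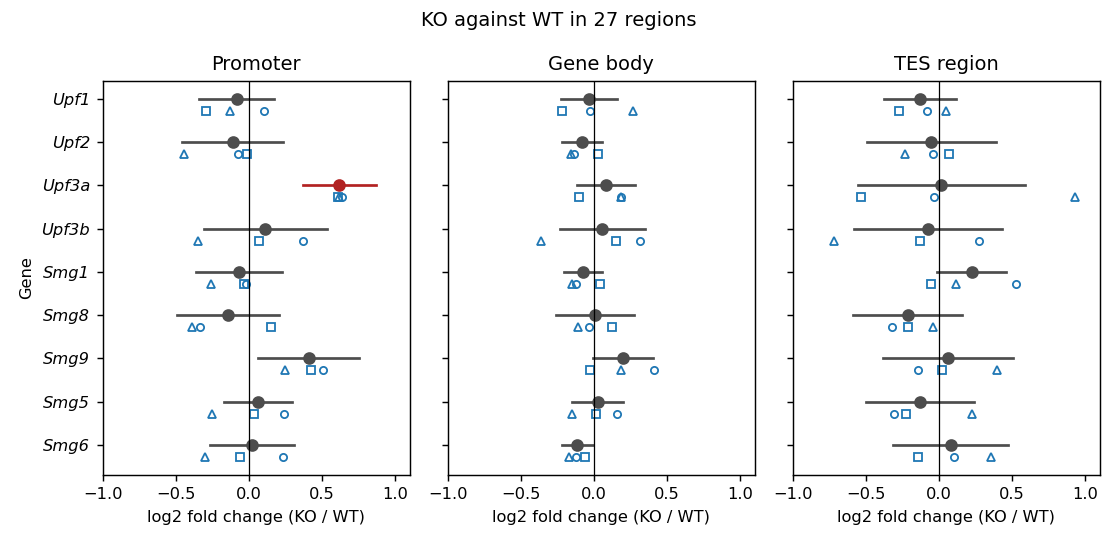
Log2 fold change of KO against WT (horizontal axis) for the 9 genes (vertical axis) in 3 regions. Filled points are the limma estimates with their 95% intervals, red where the adjusted p was under 0.1, and open symbols are the single pairs (circle 1, square 2, triangle 3). Only the Upf3a promoter is red, at 0.62, and its 3 pairs coincide, whereas those of the other genes mostly spread across 0.

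Among the genes of the SMG1 kinase complex, Smg9 had the second smallest p of the 9 promoters. Smg9 (chr7:24399619-24422778, plus strand, no overlapping gene) encodes a partner of SMG1. Its promoter held 84, 144 and 58 reads in WT and 162, 160 and 79 in KO, or 4.10, 5.70 and 4.71 CPM against 5.83, 7.67 and 5.59. The KO library was higher in 3 of 3 pairs, as in 18.1% of all promoters, but KO replicate 3 lay below WT replicate 2. The log2 fold change of 0.41 ± 0.16 (interval 0.07 to 0.75) did not pass the test (limma adjusted p = 0.526). Upf3a and Smg9 were the 2 of 9 promoters higher in KO at an unadjusted p under 0.05, as were 7.55% of all promoters. The Smg9 gene body had 35.5, 36.4 and 38.2 CPM in WT and 47.1, 35.8 and 43.5 in KO. WT values were close together and KO values were not, and only KO replicate 2 lay within the WT range (log2 fold change 0.20 ± 0.09, limma adjusted p = 0.621). The estimate was 0.07 without either library of pair 1 and 0.33 and 0.32 without WT or KO replicate 2.

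Smg1 itself, the kinase gene (chr7:118131308-118243670, minus strand), had 10.7, 11.0 and 5.77 promoter CPM in WT and 10.5, 10.8 and 4.81 in KO. Each KO value lay below that of its pair, as in 13.3% of all promoters, by most in the third (log2 fold change -0.07 ± 0.14, interval -0.36 to 0.22, limma adjusted p = 0.923). Reads there are shared with 4930583K01Rik, a noncoding RNA gene that leaves the same promoter on the opposite strand. The log2 fold change of the gene body, whose window also covers Gm25683 and Gm45084, was -0.07 ± 0.06. The TES region of Smg1 was the fullest of the 9 and lay at percentile 99.4 of all genes per kb, with 36.7, 39.7 and 24.4 CPM in WT and 53.0, 38.2 and 26.5 in KO. Only pair 1 differed by much, and the log2 fold change of 0.23 ± 0.11 did not pass the test (limma adjusted p = 0.628). This log2 fold change was 0.0031 and 0.0039 without WT or KO replicate 1, and 0.42 and 0.41 without WT or KO replicate 2. The window contains the whole promoter window of Arl6ip1, chr7:118129562-118130062, which is the next gene on the same strand. That promoter alone held 334, 479 and 139 reads in WT and 686, 404 and 195 in KO, which is 44.4% to 52.1% of the Smg1 TES reads, and its own log2 fold change was 0.31 ± 0.13 (limma adjusted p = 0.549). This became 0.11 without either library of pair 1, and 0.50 and 0.49 without WT or KO replicate 2. Smg8 (chr11:87077732-87086774, minus strand), the other SMG1 partner, had 9.33, 7.56 and 3.98 promoter CPM in WT and 7.41, 8.39 and 3.04 in KO, which overlap (log2 fold change -0.14 ± 0.16). Its gene body, which also covers the pseudogene Gm9378, stood at 12.7 ± 0.500 CPM in WT and 12.7 ± 1.39 CPM in KO (log2 fold change 0.01 ± 0.12). The TES region of Smg8 was lower in KO in 3 of 3 pairs, as were 20.7% of all TES regions. It did not pass the test (-0.21 ± 0.17, limma adjusted p = 0.786).

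The effectors that act on phosphorylated UPF1 did not pass in any region. Smg5 (chr3:88336260-88362338, plus strand) had the highest promoter level, 22.5, 23.9 and 18.8 CPM in WT and 26.5, 24.5 and 15.8 in KO. The KO values bracketed the WT values, since pair 1 was higher and pair 3 lower in KO (log2 fold change 0.06 ± 0.11, interval -0.17 to 0.30, limma adjusted p = 0.911). Its promoter window shares 312 of 500 bases with that of Tmem79, which starts 112 bases away on the opposite strand, so the level cannot be assigned to Smg5 alone. The other 188 bases of the Tmem79 promoter window lie in the Smg5 gene body window. The Tmem79 promoter held 36.7% to 80.1% as many reads as the Smg5 gene body, which limits that level and its ratio too. The Tmem79 promoter had a log2 fold change of -0.02 ± 0.12, which was 0.0033 with library totals alone. The gene body and TES region of Smg5 differed by 0.03 ± 0.08 and -0.13 ± 0.17. Smg6 (chr11:74925823-75164448, plus strand), the endonuclease gene and the longest of the 9, had 12.7, 13.9 and 7.15 promoter CPM in WT and 14.9, 13.3 and 5.81 in KO, with the third pair lowest in both groups (log2 fold change 0.02 ± 0.13). Its gene body had 235, 250 and 341 CPM in WT and 216, 240 and 303 in KO. Here the third pair was highest. KO was lower in 3 of 3 pairs, as in 16.9% of all gene bodies, while the groups overlapped (log2 fold change -0.11 ± 0.05, interval -0.22 to -0.01, limma adjusted p = 0.593). It was the only gene body of the 9 lower in KO at an unadjusted p under 0.05, as were 3.59% of all gene bodies. Srr starts 125 bases from Smg6 on the opposite strand, and its promoter window lies in that of Smg6 for 75 bases and in the gene body window for the other 425. The Smg6 promoter window in turn shares 425 of its 500 bases with the gene body window of Srr. The Smg6 promoter level therefore cannot be assigned to Smg6 alone. The Srr promoter held 1.99% to 9.06% as many reads as the Smg6 gene body. Its log2 fold change was -0.30 ± 0.15 (limma adjusted p = 0.633) and became -0.58 without WT or KO replicate 1, where it passed the test (adjusted p = 0.0238 and 0.0234). The Smg6 gene body window also covers Gm22733, Gm28180, Gm12333, Gm12335 and Rps12-ps19, all on the opposite strand and without counts here. The TES window of Smg6 overlaps Hic1, on the opposite strand, and the log2 fold change of this window was 0.08 ± 0.18.

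Per kb of window, WT promoter levels ran from 43.4 ± 5.26 TMM-scaled CPM per kb at Smg5 through Upf1 (31.4), Upf3a (22.8), Smg6 (22.5), Smg1 (18.3), Smg8 (13.9), Upf2 (12.3) and Smg9 (9.67) to 7.02 ± 0.511 at Upf3b (SD, n = 3). Each neighbour in this order overlapped the next in range, except Smg9 and Upf3b. In KO the Upf3a promoter stood at 35.0 ± 5.74 per kb, between Smg5 (44.5) and Upf1 (29.7). Gene body levels were much lower per kb and closer together, from 2.32 ± 0.498 at Upf1 and 2.27 ± 0.183 at Upf3a to 0.922 ± 0.327 at Upf3b, with only Smg9 (1.60) and Smg8 (1.44) apart among neighbours. The gene body windows of Upf1, Smg5 and Smg6 share bases with windows of other measured genes, so their levels and ranks cannot be assigned to them alone. TES regions ranged from 16.0 at Smg1 and 7.89 at Upf1, where windows are shared, to 1.06 ± 0.218 at Upf3a. Among all genes, Smg5 lay at percentile 98.1 for its promoter and Upf3b at 33.7. For gene bodies Upf1 lay at percentile 79.4 and Upf3b at 18.9.

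**Figure D4:**
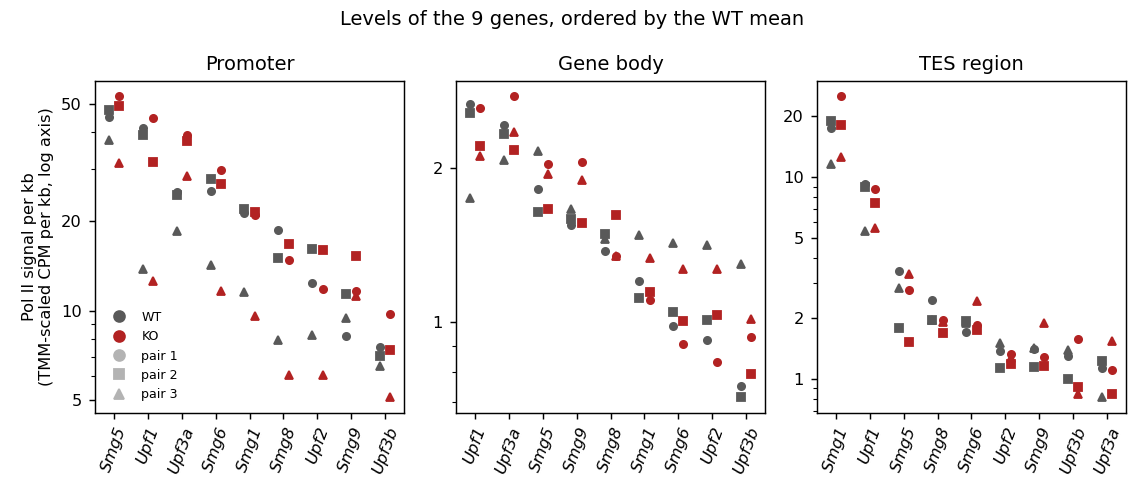
Pol II signal per kb of window (TMM-scaled CPM per kb, log axes that differ between panels) of the 9 genes in each library, ordered by the WT mean. Grey, WT; red, KO; symbols mark the pairs. The third pair (triangles) is low at most promoters and high in many gene bodies, and the 3 KO points of Upf3a lie above its 3 WT points.

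The genes also differed in the balance of promoter and gene body. In WT the density ratio averaged 23.7 ± 5.89 at Smg5, 20.8 ± 9.32 at Smg6, 15.1 ± 6.44 at Smg1, 12.9 ± 4.35 at Upf1, 11.8 ± 5.27 at Upf2, 9.98 ± 0.879 at Upf3a, 9.74 ± 4.06 at Smg8, 8.29 ± 2.85 at Upf3b and 6.05 ± 0.992 at Smg9. The median over 11994 genes was 7.22, so 8 of the 9 lay above it. The promoter windows of Smg5, Smg6 and Smg1 are shared with other genes, and the gene body windows of Upf1, Smg5 and Smg6 with windows of other measured genes. The third pair was low here too. WT replicate 3 had the lowest WT ratio and KO replicate 3 the lowest KO ratio at 8 of 9 genes, all but Smg9.

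**Figure D5:**
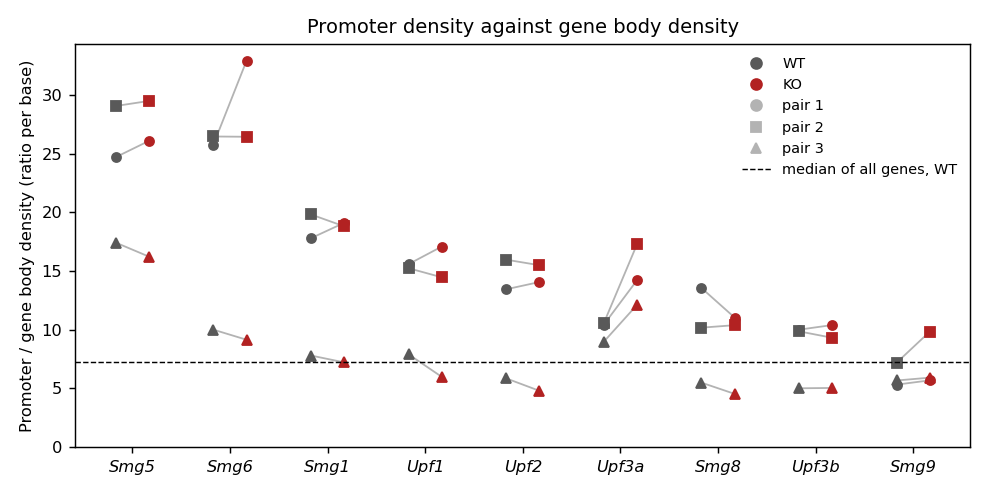
Promoter density divided by gene body density (ratio per base, vertical axis) for the 9 genes in WT (grey) and KO (red), with lines joining pairs. Triangles (pair 3) lie lowest at most genes, and Upf3a spans 8.97 to 10.6 in WT and 12.1 to 17.3 in KO.

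Of the 7 other lists of the pathway, 6 held no called region. None was called among 8 auxiliary factors, 9 measured genes of the exon junction complex, 6 of cap binding and translation termination, 16 of mRNA decay, 3 of the phosphatase PP2A, which dephosphorylates UPF1, and 8 PIKK kinases and their chaperone, which stabilises SMG1. The smallest p-values in these lists belonged to Dhx34, an auxiliary helicase (promoter -0.26 ± 0.13, limma adjusted p = 0.633), Rbm8a, which encodes the junction protein Y14 (gene body 0.26 ± 0.13, adjusted p = 0.631), Ncbp1, the large cap-binding subunit (TES region -0.47 ± 0.17, adjusted p = 0.476), Cnot1, the deadenylase scaffold (TES region -0.40 ± 0.16, adjusted p = 0.524), Ppp2ca, the catalytic subunit of PP2A (promoter 0.27 ± 0.13, adjusted p = 0.622), and Tti2, of the chaperone (promoter 0.40 ± 0.12, adjusted p = 0.382). The Tti2 promoter passed the test without WT replicate 3 (0.52, limma adjusted p = 0.0407) and without KO replicate 3 (0.52, adjusted p = 0.0417). Of 16 listed genes whose transcripts are known NMD targets 10 were measured. Among these, 2 gene bodies rose, beside 0.173% of all gene bodies, 9 lay above 0, beside 45.3%, and the median log2 fold change was 0.18, beside -0.01. This list was chosen with earlier results of these data known. The study itself had shown Gadd45b as a gene with higher Pol II density in KO cells. The shares describe the list and were not tested. Gadd45b, a stress-induced growth arrest gene, had 5.42, 11.6 and 6.09 gene body CPM in WT and 16.4, 21.0 and 14.1 in KO (log2 fold change 1.17 ± 0.15, limma adjusted p = 0.0336). Srsf7, a splicing factor gene whose poison exon makes its mRNA an NMD target, had 34.2, 38.1 and 36.1 CPM in WT and 54.2, 49.3 and 52.2 in KO (0.52 ± 0.08, adjusted p = 0.0640). In both, all KO values lay above all WT values, as in 1.5% of all gene bodies. Neither call held in limma without the replicate block (adjusted p = 1.0 each), on the deposited log2 CPM (0.589 each) or with each region type on its own (0.127 and 0.196), and that of Srsf7 did not hold with TMM factors from gene bodies (0.103) or without the second pair (0.162). Neither promoter passed the test (0.28 ± 0.13 for Gadd45b and -0.13 ± 0.09 for Srsf7), whereas in Upf3a the promoter passed and the gene body did not. Pol II occupancy does not measure mRNA decay.

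Over the 6 libraries, the mean log2 CPM of the 9 gene bodies was 5.61, 5.60 and 5.82 in WT and 5.68, 5.60 and 5.77 in KO. It was highest in the third pair of either group. The gene bodies most like this pattern, by Pearson r over 6 libraries among 12001 gene bodies with a mean of at least 50 counts, were Gm3468 (0.995), Trmt44 (0.995), Pomt2 (0.995), Snrnp40 (0.993) and Osbpl1a (0.992). All 5 shared the rise in the third pair, and the values share library depth and scaling.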

How the data were processed

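The submitters' notes list BWA, Trimmomatic, Picard, HOMER, MACS2, limma, edgeR and bcl2fastq 2.20, and the build GRCm38 (mm10). Reads were counted with HOMER in windows around the TSS, gene body and TES, and the authors deposited whole-number counts per gene and region without normalization. They also deposited log2 CPM from TMM and voom. They had removed genes without signal in KO cells. The sources used here do not name the annotation behind the windows, so positions and lengths came from GENCODE vM21. No spike-in and no input library was used here.

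All 36321 regions were scaled with TMM (edgeR 4.0.16) and tested two-sided with limma-voom (limma 3.58.1, R 4.3.3), with replicate pair and genotype as terms and Benjamini-Hochberg adjustment. Regions with an adjusted p under 0.1 were called. DESeq2 1.42.0 and edgeR's quasi-likelihood test were alternatives. Intervals are 95% limma intervals. WT and KO libraries of the same number deviated in common from their group means (correlations 0.648 to 0.708 at promoters, 0.755 to 0.889 in gene bodies, 0.606 to 0.767 in TES regions). Libraries of different number were not compared, so these correlations do not show which libraries belong together. The block rests on the study's methods, which name replicate pairs, and on the numbers in the labels. Whether replicates came from separate fetuses is not stated, so p-values refer to these pairs of libraries. Limma draws the variance of each region in part from all other regions. The SE of the Upf3a promoter (0.11) and its p-value therefore do not measure the spread of its own pairs alone. Log2 ratios of promoter or TES region to gene body were taken with a pseudocount of 0.5 where both regions averaged 10 counts or more, and tested with limma in the same way. The fit was tested on simulated data. Promoter sequences came from RefSeq, with a match for 9 of 9 genes.

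The genes, lists and tests were chosen with earlier results of these data known. Named were all 9 genes, called regions of the 7 other pathway lists or the 1 with the smallest p per list, genes overlapping the windows, and the 5 gene bodies most like the mean of the 9. The protein sequences of the design were not analysed here. The counts of PCR copies are not independent molecules.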

Additional observations from a re-analysis of the deposited data

How the results depend on the processing

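The Upf3a promoter rose by 0.60 to 0.64 (log2) under all 19 alternatives and was called in 10, of which 6 had a library or pair left out. The number of the 9 promoters called was 1, and 0 without the replicate block, with edgeR, with DESeq2, with library totals only, with TMM factors from gene bodies and on the deposited log2 CPM, and 0 to 1 with a library or pair left out. None of the 9 gene bodies, TES regions or ratios was called under any alternative run, but DESeq2 gave no adjusted p for 6 of the 9 TES regions (Upf2, Upf3a, Upf3b, Smg6, Smg8 and Smg9) or for the Upf3b promoter, which were not tested there. Upf3b, being X-linked, was also absent from the fit without X and Y genes. The Upf3a TES to gene body ratio was absent where a mean of at least 50 counts was required. The count over all 36321 regions was 49, and 0 without the replicate block, 0 on the deposited log2 CPM, 18 with TMM factors from gene bodies, 20 with library totals only, 85 with each region type scaled on its own, 125 without X and Y genes, and 11 to 546 with a library or pair left out. The block changed no other call on the 9 genes.

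Leaving out the 7 values without an adjusted p in DESeq2, 809 of the values named kept sign and side of the threshold and 95 in 26 results changed sign, 81 of these with a library or pair left out. Fits without WT, without KO or without both libraries of a pair nearly repeat each other, so these counts are not of separate checks. None of these 26 results was called. A further 17 values (Upf3a promoter, Gadd45b and Srsf7 gene bodies) lost the call and 6 (Tti2 and Srr promoters, with a library or pair left out) gained it. Smg6 promoter was -0.019 without the replicate block, -0.0068 with edgeR, -0.020 with DESeq2, -0.0074 with each region type on its own and -0.042 on the deposited log2 CPM. Smg8 gene body was -0.011, -0.0014, -0.0053 and -0.0077 without the block, with edgeR, with DESeq2 and on the deposited values. Upf1 gene body was 0.0083 on the deposited values, Upf2 and Upf3b TES regions 0.027 and 0.021 with each region type on its own, and the Upf3a TES to gene body ratio -0.0063 with pseudocount 5. The Tmem79 promoter was 0.0033 with library totals only.

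With a library or pair left out, promoters ranged from -0.056 to 0.15 (Smg5), -0.13 to 0.10 (Smg6), -0.36 to 0.012 (Smg8), -0.25 to 0.063 (Upf1), -0.078 to 0.24 (Upf3b) and -0.30 to 0.13 (Tmem79). Gene bodies ranged from -0.057 to 0.10 (Smg5), -0.073 to 0.058 (Smg8), -0.12 to 0.082 (Upf1) and -0.090 to 0.25 (Upf3b). TES regions ranged from -0.28 to 0.019 (Smg5), -0.019 to 0.22 (Smg6), -0.069 to 0.20 (Smg9), -0.13 to 0.025 (Upf2), -0.26 to 0.35 (Upf3a) and -0.37 to 0.12 (Upf3b). Promoter to gene body ratios ranged from -0.093 to 0.013 (Smg1), -0.041 to 0.050 (Smg5), -0.065 to 0.18 (Smg6), -0.24 to 0.029 (Upf1), -0.16 to 0.011 (Upf2) and -0.036 to 0.031 (Upf3b). TES to gene body ratios ranged from -0.35 to 0.065 (Smg5), -0.25 to 0.13 (Smg9), -0.019 to 0.069 (Upf2) and -0.32 to 0.25 (Upf3a). The causes were not tested.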
